A study of Mus musculus with 12 samples.

Results

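The cells described here are lymph node endothelial cells that carried transcripts of Apln or Esm1, genes used to mark the leading cells of vessel sprouts. They were chosen from single-cell RNA counts in 6 libraries of the CD45-depleted, CD31-sorted fraction. A cell was kept with at least 1000 UMIs (molecular tags that each mark a captured molecule), at least 500 genes and at most 10% mitochondrial UMIs. It was taken as endothelial with at least 2 UMIs of Pecam1 and Cdh5 together and none of Ptprc, Cd79a or Cd3e. Members then had at least 2 UMIs of Apln and Esm1 together, no UMI of Prox1 (lymphatic), of Fut7 or Chst4 (high endothelial venule), or of Gkn3, Gja5 or Bmx (arterial), and at most 1 UMI of Top2a and Mki67 (dividing cells). The rule found 2737 cells among 50017 cells, 28289 endothelial cells and 23715 Prox1-free endothelial cells. They are called Apln+Esm1 cells below, after the rule. Since Apln and Esm1 chose them, the levels of both are a description.

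All mice were C57BL/6 animals of 7-10 weeks with both Atg12 alleles floxed, and all received tamoxifen 5 times. Mice labelled Cre-positive carried CreER driven by Cdh5, an endothelial gene, and those labelled Cre-negative did not. Each genotype was sampled after solvent alone (vehicle), and 3 and 7 days after 50 ul of 4% oxazolone, a skin sensitiser, on the abdomen. Each of the 6 combinations is 1 library, and the labels do not say how many mice were pooled, so no group has a replicate of its own. Values per library are given in the order vehicle, day 3 and day 7, with the library labelled Cre-negative first in each pair. Libraries held 45438350 to 76187731 UMIs, and 428, 525, 330, 745, 434 and 275 of the members came from each.

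In sprouting vessels a tip cell leads and stalk cells follow. VEGF acting on its receptor Kdr raises the Notch ligand Dll4 in the tip, and Notch signalling in neighbours holds them back from the same fate. Tip cells are known for the peptide apelin (Apln), the secreted proteoglycan endocan (Esm1), the Tie2 ligand angiopoietin-2 (Angpt2) and the Flt1 ligand placental growth factor (Pgf). Esm1 is also known from the growing retina, where cells that carried it later line arteries. In a lymph node, new capillaries and venules grow when an immune response enlarges the organ.

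Of the 4 genes given as markers, Angpt2 and Pgf were high in the minority of the cells that carried Apln. A cell with no UMI of a gene can still hold its transcripts, and the kinds named below rest on the UMIs seen. Esm1 was seen without Apln in 2284 members, both genes in 264, and Apln without Esm1 in 189. Mean Esm1 over the libraries was 864 ± 75.3 CPM (SD, n = 6; CPM is UMIs of a gene per 1000000 UMIs, summed over the cells of a library), and mean Apln was 88.0 CPM. Angpt2 lay at 43.6, 36.2, 38.2, 35.6, 52.9 and 51.0 CPM in the members, and at 10.5 to 20.3 CPM in the 13998 cells that passed the same gates with no UMI of Apln or Esm1 (called other blood endothelial cells below). All 6 libraries were higher in the members, with no overlap. Pgf lay at 0.928 to 10.9 CPM in the members, from 3 to 21 UMIs a library, and at 0.533 to 2.59 CPM in the other cells. These ranges overlapped, although Pgf was higher in the members within each library. Its mean was 5.57 CPM in the members against 1.06 CPM in the other cells. In the Esm1-only cells, 83.4% of the members, Angpt2 was at 23.1 CPM and Pgf at 0.266 CPM. The 24 genes of the tip cell list other than Apln and Esm1 summed to 9745 to 11356 CPM in Esm1-only cells, 7834 to 9726 CPM in Apln-only cells and 7428 to 8652 CPM in the other cells. Within each of the 6 libraries the order was the same, and Flt1 alone made 2721 CPM of the sum in Esm1-only and 809 CPM in Apln-only cells. On the means, Flt1 differed between Esm1-only and Apln-only cells by more than the sums did. The order of these kinds thus rests on that gene. No cell type name is given here, since the markers differ between the kinds. Only 2 of 3323 B cells of the same libraries passed the 2-UMI threshold of Apln and Esm1 (95% upper limit 0.217%). Median UMIs of the B cells were 2790 to 3415 a library, against 4843 to 6493 in the members. Members just inside the threshold, with exactly 2 UMIs of Apln and Esm1 (737 cells), had 33.3 CPM of Angpt2 and 354 CPM of Mdga2, a gene that leads the members below. The 1525 cells just outside, with 1 UMI, had 22.6 and 314 CPM.

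Apln and Esm1 lie on different chromosomes, and the stretches before their start sites are shown because the members split by which of them they carry. Mdga2 and Itm2a are added because both were high in the cells with Esm1. The sequences are the 250 bases before each RefSeq start in GRCm38.p6, 5′ to 3′ on the gene's strand. They cover chrX:48034854-48035103 (minus strand) for Apln, chr13:113209409-113209658 (plus) for Esm1, chr12:67222550-67222799 (minus) for Mdga2 and chrX:107403361-107403610 (minus) for Itm2a.
Apln: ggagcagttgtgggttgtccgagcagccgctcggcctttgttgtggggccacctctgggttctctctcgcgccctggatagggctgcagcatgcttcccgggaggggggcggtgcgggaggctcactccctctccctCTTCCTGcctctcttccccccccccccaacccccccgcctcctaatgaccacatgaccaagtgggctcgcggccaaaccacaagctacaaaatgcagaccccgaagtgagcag
Esm1: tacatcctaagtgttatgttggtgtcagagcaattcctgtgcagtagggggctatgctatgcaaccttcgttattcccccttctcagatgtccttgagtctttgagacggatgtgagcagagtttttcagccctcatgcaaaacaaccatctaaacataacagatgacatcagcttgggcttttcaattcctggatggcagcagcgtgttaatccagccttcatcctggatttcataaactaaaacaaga
Mdga2: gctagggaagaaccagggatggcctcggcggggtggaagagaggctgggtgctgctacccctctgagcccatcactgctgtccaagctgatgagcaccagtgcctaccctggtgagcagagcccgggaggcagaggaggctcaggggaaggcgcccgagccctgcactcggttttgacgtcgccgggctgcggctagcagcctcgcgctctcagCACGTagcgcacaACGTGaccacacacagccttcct
Itm2a: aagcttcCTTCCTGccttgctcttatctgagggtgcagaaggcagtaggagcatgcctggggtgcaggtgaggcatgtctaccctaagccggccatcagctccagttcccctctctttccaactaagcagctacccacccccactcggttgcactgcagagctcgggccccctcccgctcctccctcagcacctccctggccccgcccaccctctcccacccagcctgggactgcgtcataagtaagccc
Capitals mark matches, on either strand, to CAGGAAG (a core of ETS factors), ACGTG (the core of the hypoxia response element) or TGGGAA (a core bound by the Notch effector RBPJ). Apln and Itm2a hold 1 ETS match each, Mdga2 holds 2 of the hypoxia core, and Esm1 holds none of the 3. Among 32851 RefSeq promoters of the same length, 10.8% hold the ETS core, 16.6% the hypoxia core and 21.6% the RBPJ core, so the matches are a description of the letters. Of 12 genes looked up, 9 had an entry.

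Members made up 10.5%, 13.7%, 8.98%, 13.9%, 11.0% and 9.64% of Prox1-free endothelial cells. The libraries labelled Cre-positive were above their partners for vehicle and day 3 and below at day 7. The mean log2 ratio of Cre-positive to Cre-negative shares was 0.27 ± 0.42 (SD, n = 3 pairs), and the exact sign-flip permutation test, two-sided, gave p = 0.5, where 3 pairs cannot go below 0.25. Against vehicle, the mean log2 ratio was -0.10 at day 3 and -0.22 at day 7, without a test. The pairs went opposite ways at both times, with -0.23 (Cre-negative) and 0.025 (Cre-positive) at day 3. At day 7 they were 0.061 and -0.51. Median UMIs per member were 5624, 5509, 6057, 5980, 4843 and 6493, and a cell with more UMIs passes a 2-UMI threshold more easily. With every cell thinned to 2000 UMIs, which left out 268 to 1286 shallower Prox1-free cells a library, the shares were 6.31%, 7.24%, 5.51%, 8.38%, 6.49% and 4.11%. Apln-only cells were 5.61%, 5.90%, 5.76%, 7.38%, 7.37% and 10.2% of the members, and Esm1-only cells 75.6% to 85.5%. The plot of shares shows both the shift with depth and the make-up of the members.

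**Figure D1:**
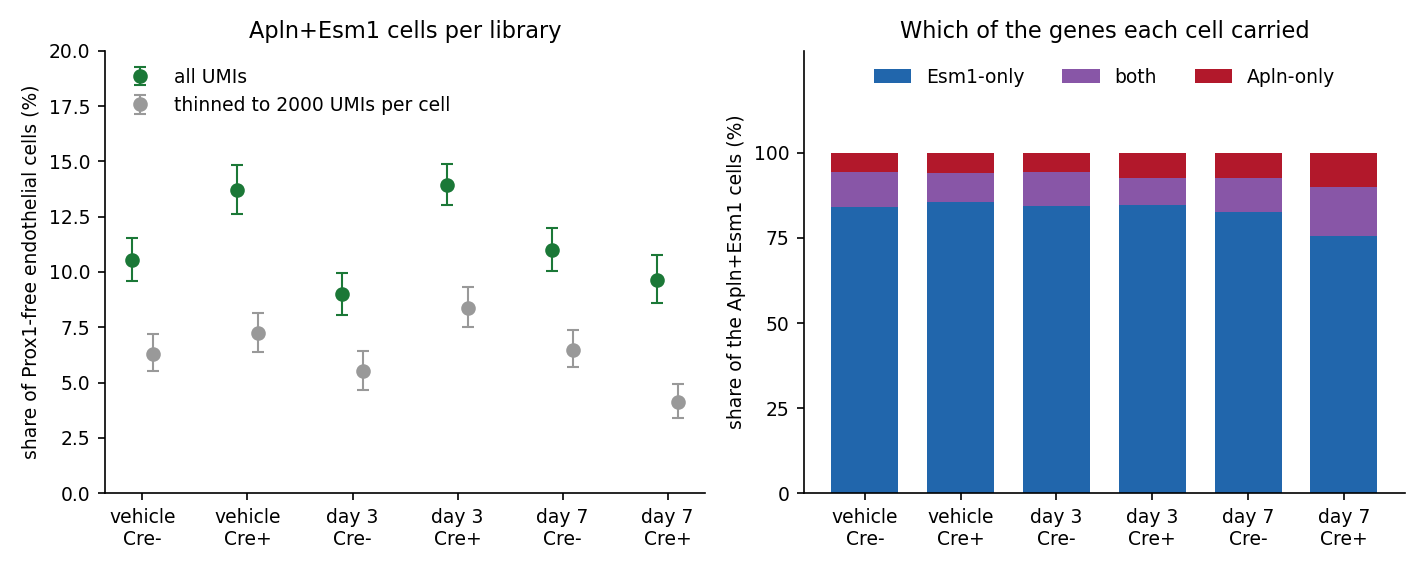
Share of Prox1-free endothelial cells that passed the Apln+Esm1 rule in each library (left, percent, points with 95% Clopper-Pearson intervals, at all UMIs and thinned to 2000 UMIs per cell), and the split of those cells into Esm1-only, both and Apln-only (right, percent of members). Shares ran from 8.98% to 13.9% at all UMIs and from 4.11% to 8.38% after thinning, and Esm1-only cells were the largest kind in every library.

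Gene by gene, the members differed from the other blood endothelial cells of the same library in 4449 of 12263 genes tested (36.3%), with 2341 higher (19.1%) and 2108 lower (17.2%), by edgeR's quasi-likelihood test paired by library with Benjamini-Hochberg adjustment. The members had much Penk, which encodes the precursor of enkephalins and had the largest log2 difference by the naming rule after Gzmk, whose reads cannot be told apart from those of Esm1. They had less Fabp4, Cd36 and Lpl than the other cells. Sums of members rest on deeper cells than those of the other cells, whose median UMIs were 2560 to 3798. At a fixed 2000 UMIs per cell 2745 genes were called, and 2597 of these were among the 4449, all in the same direction.

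Penk (chr4:4133531-4138819, minus strand) stood at 351, 224, 312, 311, 467 and 247 CPM in the members. In the other cells it stood at 9.80, 20.1, 10.0, 5.91, 15.0 and 1.63 CPM. The groups did not overlap, and the log2 difference was 5.05 ± 0.24 (SE; edgeR adjusted p = 3.91e-11). Hapln1, a link protein that binds hyaluronan to proteoglycans, was higher by 4.27 (27.1 against 1.40 CPM). Pla1a, a phospholipase that acts on phosphatidylserine, was higher by 3.22, and Tnfrsf11b, the decoy receptor osteoprotegerin, by 3.03. Other leading genes were Pacsin1 (3.09), Tnik (2.95), Gpx8 (2.93), Mdga2 (2.77), Itm2a (2.71) and the potassium channel Kcnj2 (2.51), each with its log2 difference.

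The most abundant of these were Mdga2 and Itm2a. Mdga2, a membrane protein with immunoglobulin domains known from synapses, was at 615, 386, 1049, 779, 481 and 413 CPM in the members against 79.1 to 110 CPM in the other cells. Itm2a, a small membrane protein, was at 881, 476, 889, 966, 594 and 785 CPM against 88.1 to 160 CPM. Both genes were high in all 6 libraries of members, without overlap. The largest log2 difference by the naming rule, 5.94, was that of Gzmk, a granzyme of cytotoxic lymphocytes (98.6 against 1.65 CPM). In GENCODE M21 the Gzmk gene (chr13:113171608-113225908, minus strand) spans all of Esm1 (chr13:113209659-113218098, plus strand). How the counting used strand is not stated, so Gzmk transcripts and reads from Esm1 cannot be told apart, and the Gzmk value is uncertain. Gzmk was 11.1% of the Esm1 level in Esm1-only cells and 3.55 CPM in Apln-only cells. Of 78 named genes, 22 overlap a gene on the other strand, and for 5 of them (Gzmk, F8, Timp4, Lnx1 and Msmp) that partner had the higher level. Of the 7 protein-coding neighbours that start within 250 kb of Esm1, only Gzmk and Gpx8 passed the expression filter. Gpx8 was higher, as were 19.1% of all genes tested, and Gzmk is not counted for the reason given. Of the 6 such neighbours of Apln, 3 were tested, and their adjusted p in edgeR was over 0.05.

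Lower in the members were Selp (P-selectin, 2.53 against 66.3 CPM, log2 -4.48), Timp4 (-4.23), lipoprotein lipase Lpl (9.04 against 171 CPM, -4.14), the glycerol channel Aqp7 (-3.81) and the transcription factor Meox2 (7.32 against 95.2 CPM, -3.62). Tmem182, Lnx1, Cfd, Nepn, Samd5, Slc28a2 and Pbld1 complete the 12 by the naming rule, at -3.57 to -4.25. Fabp4, a fatty acid carrier, was at 2204, 1504, 3235, 2221, 1007 and 2308 CPM in the members and at 8546 to 24493 CPM in the other cells. Its log2 difference was -2.93 ± 0.09 (SE; edgeR adjusted p = 1.8e-13), with no overlap. The fatty acid translocase Cd36 was lower by the same test (338 against 2121 CPM, log2 -2.57).

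The lists of genes that follow were read for each pathway as a whole. Of 22 tip cell genes tested, 19 were higher in the members and 2 lower, with a median log2 difference of 0.62 against 0.00 over all 12263 genes. The potassium channel subunit Kcne3 (24.2 against 7.60 CPM, 1.71), Cd276 (9.57 against 2.54 CPM, 1.91), the chemokine receptor Cxcr4 (47.7 against 16.8 CPM, 1.56), the nidogen Nid2 (1.07) and Igfbp3 (1.05) led. Aqp1 (-0.97) and Gpm6a (-1.04) were lower, and Trp53i11 (-0.02) was not called. Gpm6a lost its call under 2 of 14 alternatives, and against capillary cells it stood at 0.44, not called. Among the 19, Adm lost its call under 2 alternatives, and Unc5b, Col4a1 and Col4a2 under 1 each. Plaur, the urokinase receptor, was called at 0.32, lost its call under 8 other alternatives and stood at -0.12 when only cells within the interquartile range of member UMIs were summed.

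Among VEGF ligands and receptors, 4 of 8 genes tested were higher and 3 lower. The receptors Kdr (1352 against 960 CPM, 0.57), Flt1 (0.45) and Flt4 (0.40) and the co-receptor Nrp1 (0.68) rose, while Vegfc (-2.15), Vegfa (-1.70) and the co-receptor Nrp2 (-0.23) fell. Of 15 Notch genes, 8 were higher and 3 lower. The ligand Dll4 was higher (131 against 86.9 CPM, 0.65), as were the Notch targets Hey1 (0.85) and Hey2 (13.1 against 2.40 CPM, 2.51), while the ligands Jag1 (-0.50) and Jag2 (-0.34) were lower. Pgf was left out of that VEGF test, as Apln and Angpt2 were of the next list, and Angpt2 was higher in the members as given above. Of the 4 angiopoietin, Tie and apelin genes tested, none was higher and 3 were lower (median -0.25). Tek, the receptor of the angiopoietins, was among the lower ones (144 against 273 CPM, -0.85), and the apelin receptor Aplnr (-0.08) was not called. Of 19 guidance genes, 10 were higher and 9 lower, from netrin-4 (Ntn4, 43.7 against 11.0 CPM, 2.05) and Sema6d (1.12) to Slit3 (-2.40) and Sema3g (-1.07).

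Basement membrane genes were mostly higher (14 of 22 tested, with 6 lower and a median of 0.34). Col13a1, a membrane collagen, was at 370 against 98.1 CPM (2.02), and the laminin chains Lamb1 (1.19) and Lama4 (0.66) and the chain Col15a1 (0.89) rose with it, while fibronectin, Fn1 (-2.98), and Fbln2 (-1.72) fell. Of 21 glycolysis and hypoxia genes, 14 were higher and 4 lower (median 0.25), and Eno1 (0.97) and Pkm (0.55) were among those that rose. Of 18 immediate-early and stress genes, 11 were higher and 2 lower (median 0.29), from Hspa1b (0.70) to Klf2 (-0.32), and of 20 ER stress genes 12 were higher and none lower. Caveolae and fenestral diaphragm genes moved both ways, with 3 of 8 higher and 5 lower. Plvap, the diaphragm protein, was at 2437 ± 184 against 1305 ± 282 CPM (SD, n = 6; log2 1.00), and Ehd4 (1.66) and Cavin3 (0.85) rose too, while Cav1 (-0.62), Cav2 (-0.22), Cavin1 (-0.88), Cavin2 (-1.49) and Ehd2 (-0.93) fell.

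Markers of veins and capillaries were mostly lower in the members, and those of arteries moved both ways. Of 11 venous genes, 10 were lower and 1, Lrg1, was higher (median -1.40). Of 14 capillary genes, 9 were lower and 2, Rgcc and Kdr, were higher (median -0.57), although 2396 members (87.5%) had at least 2 UMIs of the capillary genes Gpihbp1 and Cd300lg. Of 11 arterial genes, 6 were higher and 5 lower (median 0.25), and the chemokine Cxcl12 was at 3185 against 2100 CPM (0.68). Set against the 11001 other cells with at least 2 UMIs of Gpihbp1 and Cd300lg, 3674 of 12023 genes were called (30.6%), and of the 22 tip cell genes 19 were again higher, with 1 lower. Markers of fibroblasts, T cells and pericytes were low in the members, with summed levels of 3.81 to 9.98 CPM for 10 fibroblast genes, 5.88 to 12.0 CPM for 9 T cell genes and 16.9 to 52.8 CPM for 11 pericyte genes. In the other cells these sums were 11.1 to 73.0, 8.15 to 40.1 and 35.1 to 117 CPM, and their part in the differences above was not tested. The sum of B cell genes was not low, although Cd79a was at 0 through the gate. The 8 of them summed to 769 to 1365 CPM in the members and 1327 to 1662 CPM in the other cells. Which genes made the sum is not given here. Only 3 of the 8 were tested, and all 3 were lower in the members. The 10 myeloid genes summed to 16.1 to 45.5 CPM in the members and 25.4 to 118 CPM in the other cells.

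Within the members, the cells with Apln and without Esm1 and the cells with Esm1 and without Apln differed in 1585 of 8375 genes tested (18.9%), with 801 higher in Apln-only (9.56%) and 784 lower (9.36%), by the same paired edgeR test. The Apln-only cells had more Angpt2, Cd276 and Adm, and the Esm1-only cells had more Penk, Cxcl12, Gja4 and Hey1. Sums of Apln-only cells rest on 19 to 55 cells a library with median UMIs of 5275 to 9684, and those of Esm1-only cells on 208 to 630 cells with 4546 to 6094. Called genes numbered 677 at 2000 UMIs per cell and 709 within the interquartile range of member UMIs.

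Angpt2 (chr8:18690263-18741562, minus strand) stood at 85.3, 74.5, 87.4, 64.5, 138 and 65.6 CPM in Apln-only cells. In Esm1-only cells it stood at 22.7, 24.7, 20.6, 18.3, 17.9 and 34.3 CPM. The kinds did not overlap, and the log2 difference was 1.87 ± 0.22 (SE; edgeR adjusted p = 9.65e-07). Cells with both genes had 133 ± 37.6 CPM (SD, n = 6) and the other blood endothelial cells 14.6 ± 3.98 CPM. The ranges of both and Apln-only overlapped. Within each of the 6 libraries Angpt2 was higher in Esm1-only than in other cells, at 11.6, 18.9, 20.3, 13.7, 12.9 and 10.5 CPM in the latter, without a test. Angpt2 lies on the strand opposite to Mcph1, which was at 19.7 CPM in the members, and the reads of the pair cannot be told apart if strand was not used. Pgf stood at 37.9, 8.77, 95.4, 9.77, 31.1 and 79.7 CPM in Apln-only cells, from 51 UMIs, and at 0 in 4 of the 6 Esm1-only sums, from 4 UMIs in all. The ratio over the pooled cells was 115 (95% interval 42.3 to 439, counting error only).

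Of 22 tip cell genes tested in this contrast, 12 were higher in Apln-only cells and 6 in Esm1-only cells, with a median of 0.44. Higher in Apln-only cells were Cd276 (25.6 against 3.39 CPM, 2.69), Trp53i11 (200 against 46.3 CPM, 2.07), the vasodilator peptide adrenomedullin, Adm (46.2 against 10.5 CPM, 2.02), Mcam (1.49), Plaur (1.10) and Lxn (1.09), with Nid2, Plxnd1, Lama4, Col4a1 and Col4a2 at 0.39 to 0.75. Higher in Esm1-only cells were Flt1 (809 in Apln-only against 2721 CPM, -1.76), Ramp3 (-1.47), Unc5b (-1.24), Rgcc (-1.13), Igfbp3 (-1.05) and Dll4 (-0.57). Kcne3, Cxcr4, Pdgfb and Aqp1 were not called. Of 13 or 14 alternatives, Lama4 lost its call under 7, Nid2 under 5 and Dll4 under 3, and Lxn, Igfbp3 and Plaur lost it under 1 each. The plot of the tip cell list shows that the genes higher in members than in other cells divided within the members.

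**Figure D2:**
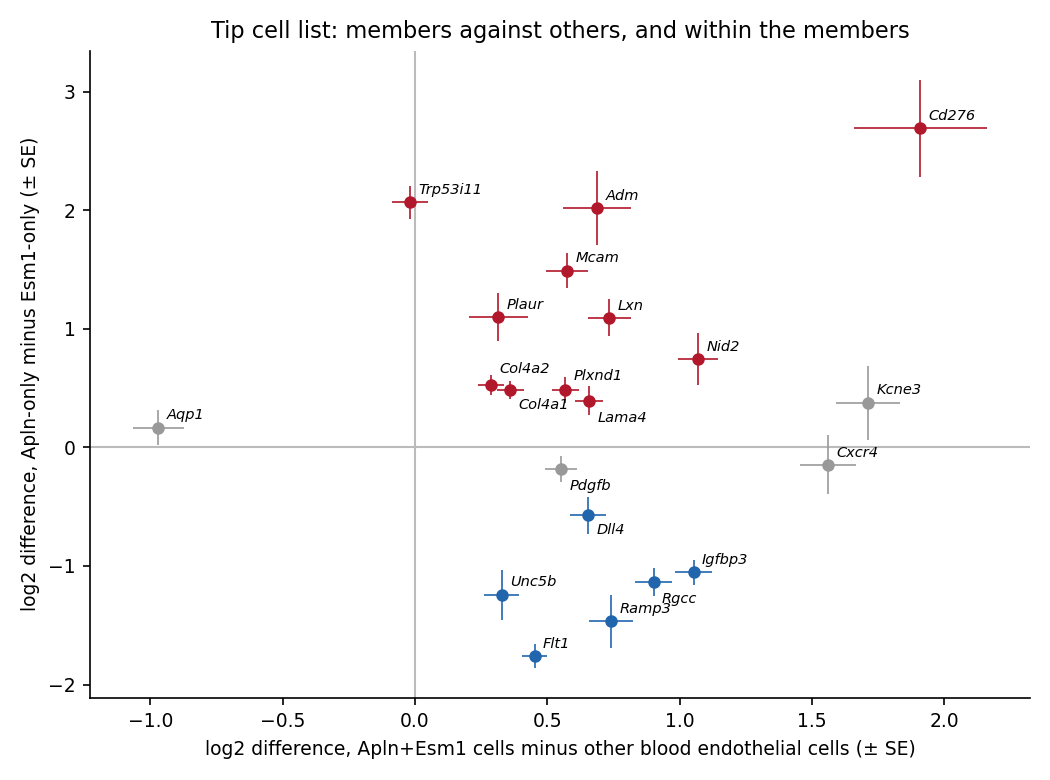
Each point is a gene of the tip cell list tested in both contrasts, with its log2 difference between Apln+Esm1 cells and other blood endothelial cells (x, ± SE) and between Apln-only and Esm1-only cells (y, ± SE). Red points were higher in Apln-only cells, blue points in Esm1-only cells and grey points were not called. Cd276 (1.91 and 2.69) and Flt1 (0.45 and -1.76) stand at opposite ends of the y axis.

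Penk had no UMI in the Apln-only sums and 450, 271, 386, 390, 574 and 344 CPM in Esm1-only cells. Against a floor of 3 UMIs over the group, Penk was at least 200-fold higher in Esm1-only cells. Cells with both genes had 0 to 154 CPM, below the Esm1-only cells and down to the Apln-only level. Spock2, a matrix proteoglycan, and Pcsk6, a proprotein convertase, also had no UMI in Apln-only cells, with 22.3 and 20.8 CPM in Esm1-only cells. They were at least 10.6-fold and 9.96-fold higher, by the same floor. Fgf13 (0.731 against 51.2 CPM), Ptprr (0.781 against 43.2 CPM) and Grin2a, a glutamate receptor subunit (2.26 against 86.7 CPM), rest on 1 to 3 UMIs in Apln-only cells. Their ratios were 77.8 (95% interval 13.9 to 3077), 63.3 (11.3 to 2504) and 43.2 (14.7 to 210). Pacsin1, Dlg2, Alox12, Klf12 and Npas2, with 1 to 4 UMIs in Apln-only cells, had ratios of 18.0 to 40.4. Itm2a (141 against 910 CPM, -2.68) and Mdga2 (102 against 736 CPM, -2.78) were lower in Apln-only cells, where they were near the levels of the other blood endothelial cells (121 and 91.1 CPM).

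Apln-only cells were led by Odc1, the first enzyme of polyamine synthesis. Odc1 stood at 171, 215, 270, 152, 378 and 361 CPM in Apln-only cells and at 13.0 to 39.3 CPM in Esm1-only cells, without overlap (log2 3.48 ± 0.22, SE; edgeR adjusted p = 1.69e-10). The matrix protein Tgfbi (77.4 against 6.95 CPM, 3.35), the NADPH oxidase Nox4 (60.9 against 7.54 CPM, 2.97), the tetraspanin Cd63 (2.72) and coagulation factor F8 (2.67) followed. Nxph1, Gprin3, Arl4c, Gpr182, Dclk1 and Fhl3 complete the 12 by the naming rule, at 2.41 to 2.89. F8 overlaps Fundc2 on the other strand, and in day 7 Cre-negative cells it reached 342 CPM against 44.9 to 79.5 CPM elsewhere. The tight junction gene Cldn5 was at 342 CPM in Apln-only and 71.8 CPM in Esm1-only cells (2.22), and at 434 CPM in the other blood endothelial cells.

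By lists, 8 of 10 arterial genes tested were lower in Apln-only cells and none was higher (median -2.33 against 0.00 over all 8375 genes). Cxcl12 (556 against 3922 CPM, -2.90), the connexin Gja4 (21.7 against 147 CPM, -2.62), Hey1 (7.39 against 81.1 CPM, -3.05) and the ephrin Efnb2 (68.6 against 288 CPM, -2.20) were among the 8. Gkn3, Gja5 and Bmx were at 0 through the gate. Hey1 had no UMI in 3 of the 6 Apln-only sums, and its range there of 0 to 21.5 CPM lay below that of Esm1-only cells, at 68.0 to 96.5 CPM. Of 12 BMP and ALK1 genes, 9 were lower and 2 higher, with Id3 at -1.59 and Smad1 at 1.54. Of 18 immediate-early and stress genes, 14 were lower and none higher (median -1.0), among them Klf2 (230 against 586 CPM, -1.40) and Fos (599 against 1499 CPM, -1.35). Of 6 VEGF genes, 3 were lower: Kdr (647 against 1520 CPM, -1.25), Nrp1 (-1.51) and Flt1.

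Of 6 venous genes tested, 3 were higher in Apln-only cells (Nr2f2, Sele and Vcam1) and none was lower, with Nr2f2 at 63.0 against 17.4 CPM (1.89). Of 9 cell cycle genes tested, 5 were higher and none lower, including Ccnd1 (938 against 350 CPM, 1.41) and Stmn1 (104 against 41.8 CPM, 1.29). The interferon-induced chemokines Cxcl10 (234 against 45.3 CPM, 2.08) and Cxcl9 (341 against 86.4 CPM, 1.52) were also higher in Apln-only cells, while of the 20 genes of the interferon list, which holds neither, 4 were higher, 1 lower and 15 not called. The 10 fibroblast genes had no UMI in Apln-only cells, and the 11 pericyte genes summed to 0 to 95.7 CPM there and to 9.78 to 56.4 CPM in Esm1-only cells. Their part in these differences was not tested. Aplnr, the apelin receptor, was at 296 CPM in Apln-only and 171 CPM in Esm1-only cells (0.79). The plot of levels by kind shows the cells with both genes beside Apln-only cells for Angpt2, Nox4 and Cxcl12, and between the kinds for Mdga2 and Itm2a.

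**Figure D3:**
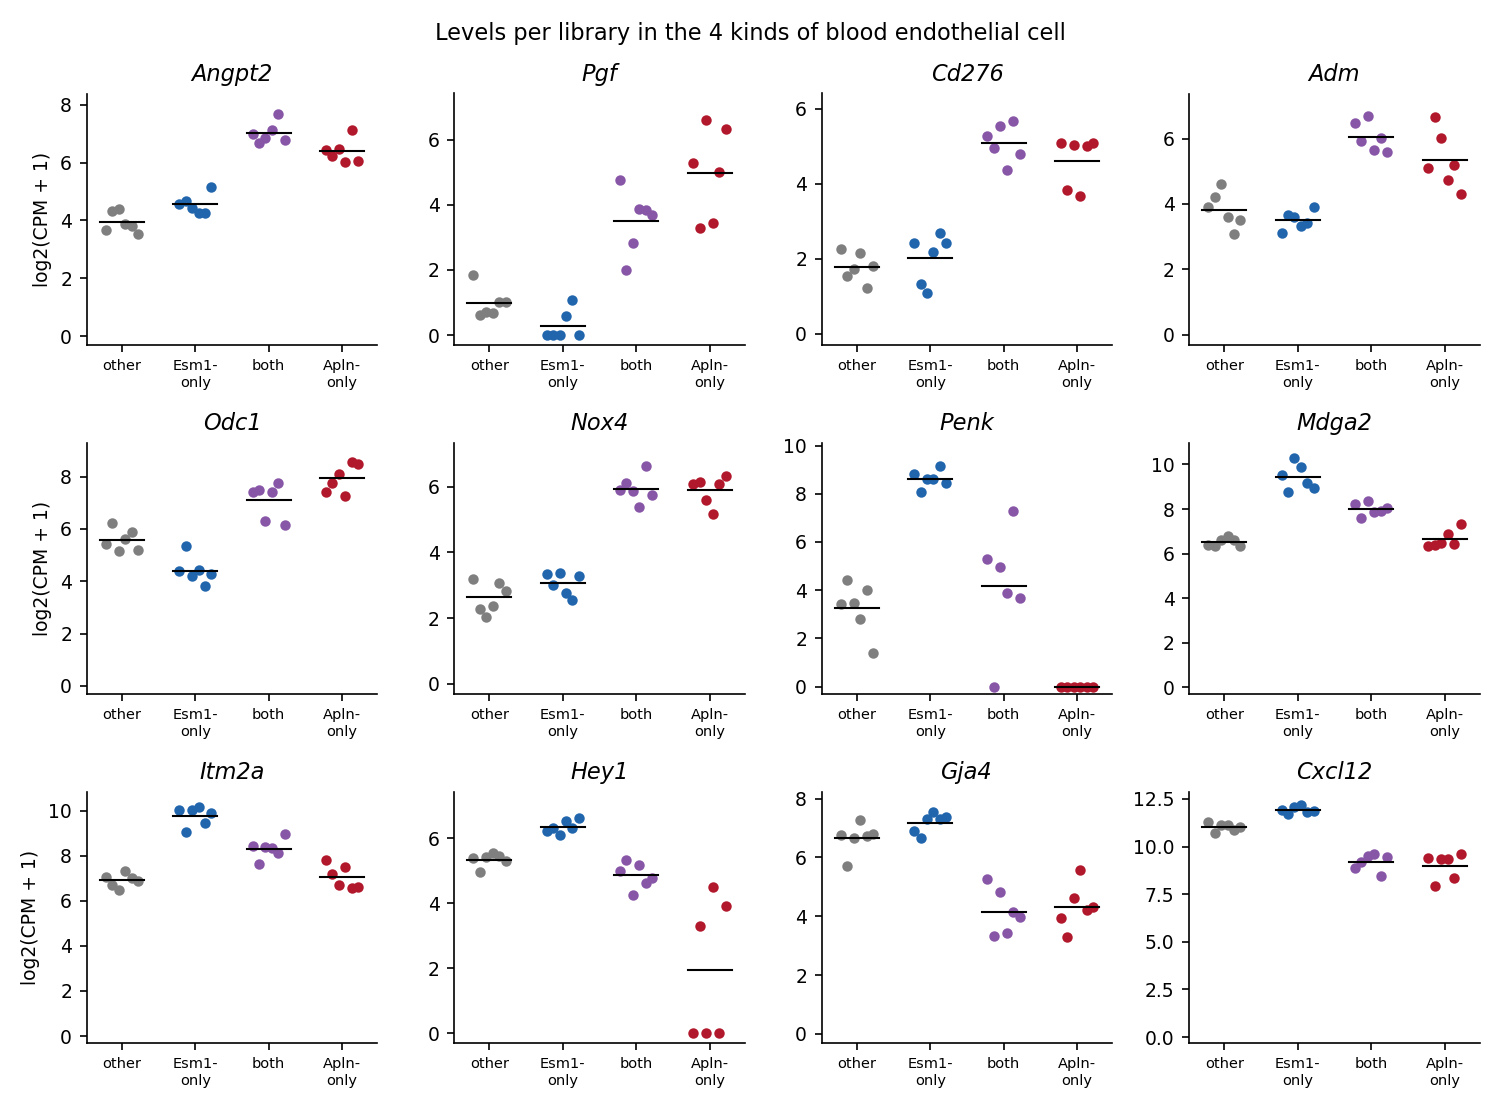
Levels of 12 genes as log2(CPM + 1), with a point for each of the 6 libraries and a line at their mean, in other blood endothelial cells, Esm1-only cells, cells with both genes and Apln-only cells. Angpt2 was at 64.5 to 138 CPM in Apln-only and 17.9 to 34.3 CPM in Esm1-only cells, and Penk was at 0 in all 6 Apln-only sums.

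Dividing cells were removed by the rule, so their share was counted under the same gates without it. Of cells with at least 2 UMIs of Apln and Esm1, 3.17%, 2.05%, 16.2%, 12.5%, 1.59% and 6.78% had at least 2 UMIs of Top2a and Mki67 in the 6 libraries. In cells with neither gene the shares were 1.82%, 0.633%, 5.15%, 9.08%, 0.799% and 1.93%. Day 3 was highest in both. Among Apln-only cells, 12 of 31 (38.7%, 95% interval 21.9 to 57.8) and 28 of 83 (33.7%, 23.7 to 44.9) were positive at day 3, against 11.7% and 9.09% of Esm1-only cells. At 2000 UMIs per cell these shares were 2 of 9 (22.2%, 2.81 to 60.0) and 2 of 20 (10.0%, 1.23 to 31.7) of Apln-only cells, and 4.83% and 3.78% of Esm1-only cells. At 2000 UMIs per cell the shares for Apln and Esm1 together fell to 6.88% and 4.57% at day 3, and those of cells with neither gene were 5.47% and 8.24%. The gates were read again on the thinned counts, so a cell could change kind. In the day 3 library labelled Cre-positive, 851 cells had at least 2 UMIs of Apln and Esm1 before thinning and 328 after. Cells with neither gene rose from 2371 to 2474 in the vehicle library labelled Cre-positive. The shares before and after thinning thus do not describe the same cells. After thinning the share was lower in the Apln and Esm1 cells in the day 3 library labelled Cre-positive. It was also lower in vehicle Cre-negative (0.939% against 1.12%) and day 7 Cre-positive (0.935% against 1.65%), where it rests on 2 and 1 cells. In the other 3 libraries it was higher, resting on 3, 11 and 3 cells. Thinned Apln-only cells numbered 9 to 20 a library.

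**Figure D4:**
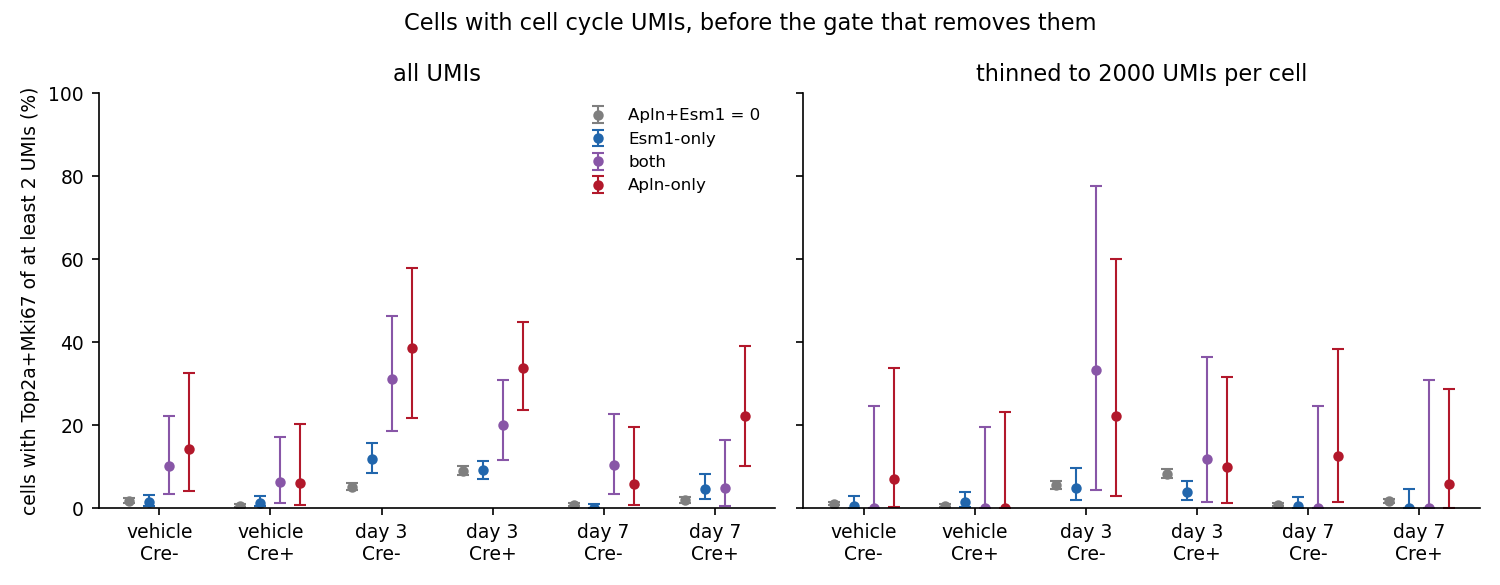
Percent of cells with at least 2 UMIs of Top2a and Mki67 in each library, by the Apln and Esm1 UMIs of the cell, at all UMIs (left) and thinned to 2000 UMIs per cell (right), with 95% Clopper-Pearson intervals. At day 3, 38.7% and 33.7% of Apln-only cells were positive at all UMIs, and the intervals after thinning are wide. The kinds were assigned again on the thinned counts.

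The design asks next what the Cre driver changed. Atg12, the floxed gene, was at 59.1, 72.0, 44.8, 62.6, 62.6 and 62.5 CPM in the members, and the libraries labelled Cre-positive were not lower on average (log2 0.31, edgeR adjusted p = 1). The labels do not say which exon is floxed, and 3′-end counts outside the deleted stretch say nothing about its loss. Averaged over the treatments, 12 of 10660 genes differed by genotype (0.113%), 10 higher in the libraries labelled Cre-positive (0.0938%) and 2 lower (0.0188%), by edgeR's quasi-likelihood test with treatment as a covariate and 2 residual degrees of freedom. Without the day 3 pair 4 genes were called, and 3 of these were among the 12. Without the day 7 pair 75 were called and without the vehicle pair 36.

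Cdo1, cysteine dioxygenase, was at 2.59, 29.1, 0.888, 14.9, 2.54 and 17.2 CPM. It was high in all 3 libraries labelled Cre-positive, without overlap (log2 3.37 ± 0.33, SE; edgeR adjusted p = 0.000182), and was called under all 11 alternatives. Cdo1 (chr18:46713193-46728395) lies on the minus strand just after Atg12 (chr18:46730144-46741580), which is read in the same direction. In the other blood endothelial cells Cdo1 showed the same order, at 3.33 to 6.03 and 22.6 to 31.4 CPM.

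Phlda3, an inhibitor of Akt and a known target of p53, was at 7.39, 29.1, 15.1, 54.3, 5.50 and 57.3 CPM (log2 2.36, edgeR adjusted p = 0.000182). The cell cycle inhibitor Cdkn1a was at 52.1, 191, 58.6, 139, 102 and 208 CPM (1.43), and the epoxide hydrolase Ephx1 at 13.3, 41.1, 10.2, 30.8, 19.0 and 53.6 CPM (1.61). All 3 were high in each library labelled Cre-positive, without overlap. In the other blood endothelial cells each of the 3 showed the same order within every pair. Phlda3 was at 16.3, 41.8, 19.5, 61.8, 12.3 and 54.4 CPM there, and Cdkn1a at 118, 205, 109, 145, 116 and 265 CPM. Ephx1 was at 37.2, 73.0, 42.7, 54.6, 33.7 and 74.0 CPM. In the members Phlda3 was called under all 11 alternatives. Cdkn1a was not called there without the day 3 pair or within the interquartile range of member UMIs. Ephx1 was not called in that range or at 2000 UMIs per cell. Gdf15, Eda2r and Ltc4s were also called, at levels of at most 17.2 CPM. They fall outside the naming rule and are named after their values were seen, because few genes were called.

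The chemokine Cxcl2 was at 28.1, 90.0, 9.77, 54.3, 18.2 and 39.1 CPM (log2 1.77), and the early gene Egr3 at 29.6, 95.9, 11.5, 41.2, 33.0 and 40.6 CPM (1.32). Both were high in the libraries labelled Cre-positive, without overlap. Cxcl2 was not called without the day 3 pair or in cells with no Xist UMI, and Egr3 was lost under 6 of 11 alternatives. Lower in the libraries labelled Cre-positive were Kcnj2 (33.3, 8.97, 37.3, 18.9, 23.3 and 11.5 CPM, log2 -1.22), lost under 7 of 11 alternatives, and Glycam1 (56.2, 23.2, 85.7, 31.8, 140 and 20.3 CPM, -1.72), not called without the day 3 pair. Glycam1 is a secreted product of high endothelial venules. In barcodes of 10 to 100 UMIs, which hold free RNA, it was at 4615, 3165, 13350, 1681, 16480 and 1338 CPM, in the same order of genotypes, and its part in the difference was not tested. Cxcl10 is described with the interaction tests. Of 24 tip cell genes, 0 were called by genotype by edgeR and 0 by DESeq2, with 3 at an unadjusted p under 0.05 in edgeR (median log2 -0.07). Angpt2 was at -0.09 and Pgf at -0.63, neither called. Of 25 autophagy genes, 0 were called by either tool and 0 had an unadjusted p under 0.05 in edgeR (median 0.05). With 0.113% of all genes called by genotype, counts of 0 in lists of this size say nothing particular about either list.

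Xist, transcribed from the inactive X of females, had no UMI in the members of the vehicle library labelled Cre-positive and 141 to 348 CPM in the other libraries. In cells with no Xist UMI alone 7 genes were called by genotype, 6 of them among the 12. A female cell can also show no Xist UMI at this depth, so the subset need not equalise sex. The library without Xist also belongs to the vehicle side of the day comparisons. Sex is not in the labels, and its part in the genotype and day differences was not tested.

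Day 3 after oxazolone differed from vehicle in 123 of 10962 genes (1.12%), 67 higher (0.611%) and 56 lower (0.511%), in the same edgeR model. DESeq2 called 47, of which 38 were shared, and 421 were called without the day 7 libraries, including all 123. In cells with no Xist UMI 47 were called, 36 of them among the 123. Within the interquartile range of member UMIs 28 were called, 25 of them among the 123. Mctp1, a calcium-binding membrane protein, was at 35.8, 20.4, 93.7, 139, 22.8 and 29.7 CPM (log2 2.10, edgeR adjusted p = 0.000825). The day 3 libraries were the highest, without overlap. Arhgap20 (2.59), the Wnt inhibitor Dkk2 (16.6, 24.1, 50.2, 65.6, 19.0 and 33.3 CPM, 1.55) and Ehd3 (1.41) were called under every alternative run, as Mctp1 was. Ch25h, an oxysterol enzyme, was at 19.2, 12.7, 60.4, 64.8, 15.2 and 26.6 CPM (2.02), and S100a6 at 136, 139, 386, 458, 239 and 254 CPM (1.65). Grm7, Ms4a6d, Timp1, Stmn2, Cks2 and Gnb1l complete the 12, at 1.45 to 2.75. Of 8 or 9 alternatives, Timp1 lost its call under 5, Cks2 under 4 and Gnb1l under 3, and the other 3, Ch25h and S100a6 each lost it under 1.

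Camk1d, a calmodulin kinase, was at 725, 874, 333, 344, 662 and 634 CPM (log2 -1.20), lowest in both day 3 libraries and called under every alternative. Sik1 (-1.55) and Zfp36 (-1.50), both induced by acute stimuli, were lower, but DESeq2 called neither, and Zfp36 lost its call under 5 of 9 alternatives. Msmp, Arrdc4, Cx3cl1, Dock10, Ifit3b, Hlf and Spock2 were lower by 1.18 to 1.60 on the log2 scale, each with its call lost under 3 to 5 of the 8 or 9 alternatives that tested it. Of 17 cell cycle genes tested, 6 rose at day 3 and none fell (median 1.04 against -0.02 over all genes). They were Tyms, Cdk1, Ccnb2, Birc5, Tpx2 and Stmn1. A gene could pass the filter through the day 3 libraries alone, so the count and median are a description. By genotype, where it could not, 14 were tested. Members held at most 1 UMI of Top2a and Mki67, and those with 1 numbered 7, 7, 16, 46, 5 and 7. Their part in the rise was not tested. Of 20 interferon genes, 3 fell (Ifit1, Ifit3 and Ifit3b). Of 18 immediate-early and stress genes, Zfp36 fell and none rose (median -0.72). Of 24 tip cell genes, Plaur rose (24.0, 28.4, 63.5, 47.7, 37.7 and 36.4 CPM, 1.09) and Trp53i11 fell (-0.81), calls lost under 4 and 6 of 9 alternatives. Angpt2 was at -0.06, not called.

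By day 7, 1 of 10962 genes was called (0.00912%) by edgeR, the haemoglobin gene Hbb-bt, with 319 genes at an unadjusted p under 0.05 and none called by DESeq2. The summed level of 8 erythrocyte and platelet genes in the members was 829, 954, 28.4, 20.9, 488 and 18.7 CPM, and 4 of the 6 tested fell at day 3. In the other cells it was 277, 926, 335, 904, 161 and 928 CPM, lower than in the members in 3 libraries and higher in 3, and its part in the day 3 calls was not tested.

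Differences between the members and the other blood endothelial cells in their response were tested as interaction terms in edgeR. At day 3, 7 of 12265 genes were called (0.0571%), 2 higher in the members (0.0163%) and 5 lower (0.0408%). By genotype 3 were called (0.0245%), 2 higher (0.0163%) and 1 lower (0.00815%). At day 7 it was 1 (0.00815%), Hbb-bt. Cxcl10, an interferon-induced chemokine, was at 55.1, 109, 6.22, 33.8, 34.7 and 165 CPM in the members and at 38.0, 43.9, 36.9, 93.8, 24.8 and 48.3 CPM in the other cells. In the members both day 3 libraries were below their vehicle partners, and in the other cells 1 was near its partner and the other above it. The difference at day 3 was -2.90 ± 0.19 (SE; edgeR adjusted p = 1.96e-06), called under all 9 alternatives. The genotype difference of Cxcl10 was larger in the members by 1.03 ± 0.16 (edgeR adjusted p = 0.0428), and it was lost under 6 of 11 alternatives. Cxcl10 overlaps Art3 on the other strand, which was at 24.4 CPM in the members.

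Adamts1, a secreted protease that cleaves matrix proteoglycans, was at 228, 233, 504, 451, 257 and 332 CPM in the members. In the other cells it was level, at 193 to 240 CPM. The day 3 response differed by 1.07 ± 0.17 (SE; edgeR adjusted p = 0.0288) and was called under all 9 alternatives. Grin2a was at 66.5, 62.2, 93.7, 66.0, 76.1 and 55.2 CPM in the members and at 21.3, 31.2, 14.0, 13.2, 21.2 and 15.4 CPM in the other cells. Its difference at day 3 was 1.22, lost under 3 of 9 alternatives. The other called genes were the haemoglobins Hbb-bt, Hbb-bs, Hba-a1 and Hba-a2 at day 3, and Hbb-bt and the interferon-induced Epsti1 by genotype. The plot of conditions shows Cxcl10 and Adamts1 beside genes for which no difference in response was called.

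**Figure D5:**
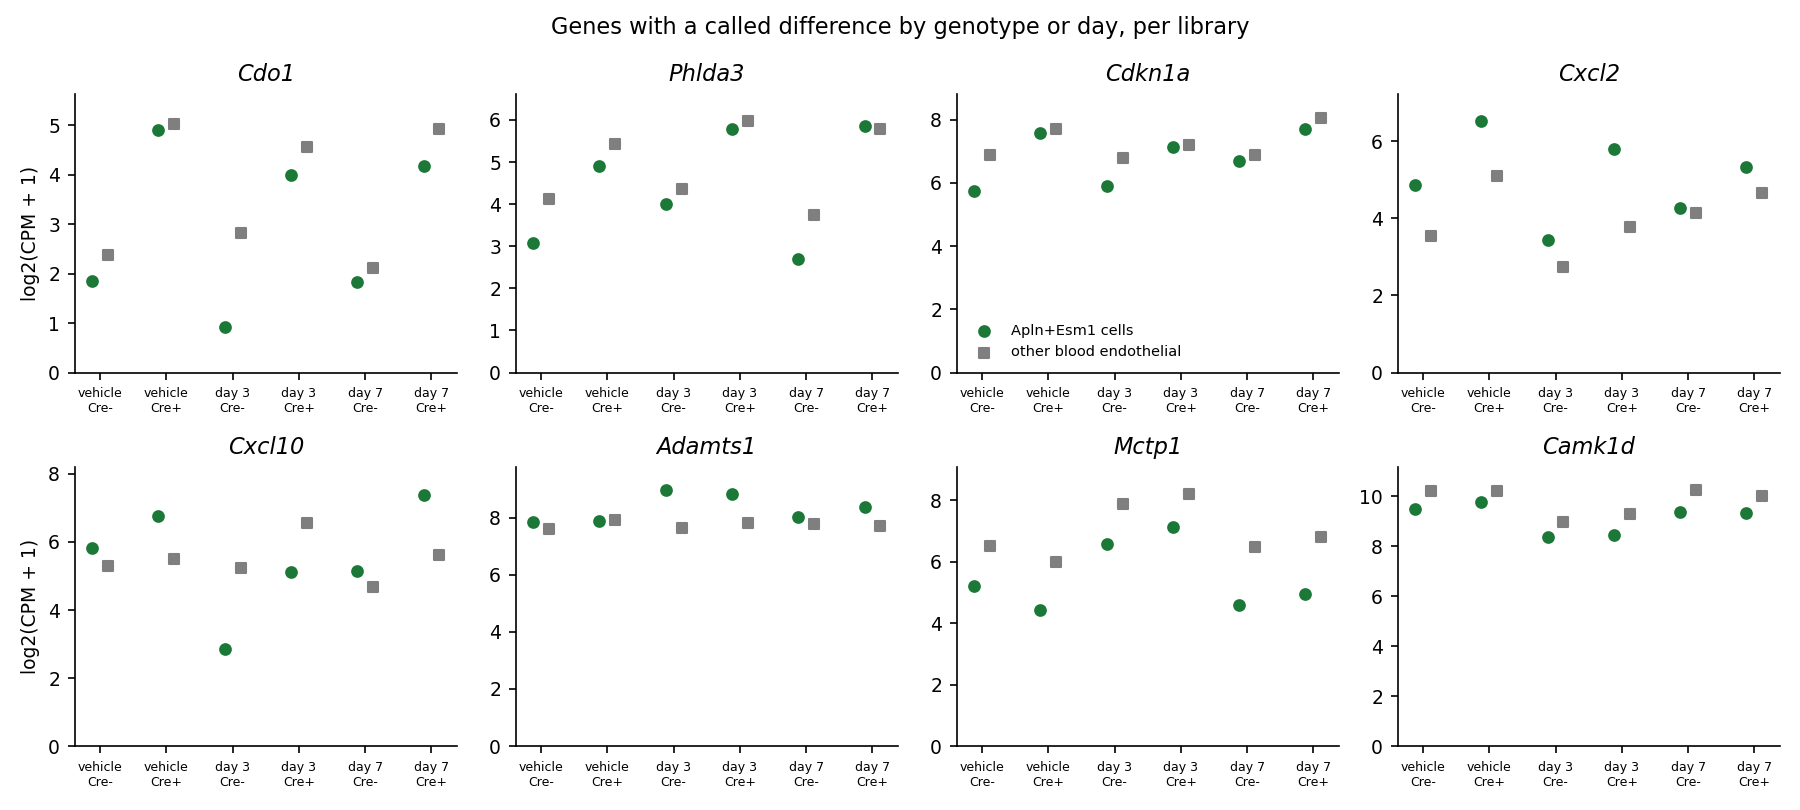
Levels as log2(CPM + 1) in each library of 8 genes with a called difference by genotype or at day 3, in Apln+Esm1 cells (green circles) and other blood endothelial cells (grey squares). In the Apln+Esm1 cells Adamts1 was at 504 and 451 CPM at day 3 and at 228 to 332 CPM elsewhere, and the other cells stayed between 193 and 240 CPM.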

How the data were processed

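RNA was read at its 3′ ends with 10x Genomics kits, per the labels. Deposited values are unfiltered UMI counts for each gene in each barcode. Per the submitters' processing notes they come from Cell Ranger 7.0.1 on mm10, while the matrix headers name Cell Ranger 4. How the counting used strand is not given in the sources used here. The members and the 29 gene lists (410 genes) were chosen with earlier results of these data known. The CD45 libraries were not used here.

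UMI counts were summed per library and kind of cell. CPM values divide these sums by all UMIs of the same cells. Sums were fitted with edgeR 4.0.16 (R 4.3.3, TMM, filterByExpr) by the quasi-likelihood F test, with library as a block for kinds of cell, and genotype plus treatment for conditions. Adjusted p is Benjamini-Hochberg at 0.05 over all genes tested. Each SE was taken from the log2 change divided by the root of its F. The 15 genes read by the rule, and Angpt2 and Pgf, were left out of tests of members against other cells. The test was tried on simulated counts with the library sizes of these sums. It recovered 99% of 2-fold changes between members and other cells (100 changed genes among 12427) and 93% between genotypes (100 among 10604). False calls numbered 12 and 5 over runs that also held 4-fold changes. All genes had the same fixed spread there, and only well counted genes were changed. These shares are thus not the power in the real data, where calls by genotype ran from 4 to 75 with a pair left out. Named genes have an adjusted p under 0.05, at least 20 CPM in the higher group and 1 direction in every pair, and are the 12 largest each way, without haemoglobin, ribosomal, mitochondrial, Y-linked, Xist, antigen receptor, Gm and Rik genes. List genes may be named with their list. Some genes that the rule names are not reported here.

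Shares have 95% Clopper-Pearson intervals, and UMI ratios exact binomial ones. Intervals and the floor of 3 UMIs cover counting error only. With 1 library per group, p-values measure only the spread between these libraries, which the labels do not tie to separate mice. Barcodes shared by library pairs numbered 9 to 25, with none among members. Alternatives were DESeq2 1.42.0, filters, thinning, doublet removal (Scrublet in scanpy 1.11.5, the top 0.8% for each 1000 barcodes), other UMI thresholds and left-out libraries. Doublet removal took 1.09% to 4.16% of members, and the caller's own threshold found 0 and 2 in the vehicle library labelled Cre-negative and the day 3 library labelled Cre-positive. Sums of cells within the interquartile range of member UMIs, and Xist-free cells for days and interactions, were added after seeing the data.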

Additional observations from a re-analysis of the deposited data

Results flagged for a closer look

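The response of Cxcl10 to day 3 differed between the Apln+Esm1 cells and the other blood endothelial cells by -2.90 on the log2 scale, by the interaction term of edgeR. The same test gave 1.22 for Grin2a and 1.07 for Adamts1 at day 3, and 1.03 for Cxcl10 by genotype.

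The share of Apln+Esm1 cells in the libraries labelled Cre-positive, as a log2 ratio to their Cre-negative partners, was 0.38 for vehicle, 0.63 at day 3 and -0.19 at day 7. The direction differed between time points, and the difference was not tested, since each time point holds 1 pair.

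An added feature named mRFP is listed in 4 of the 6 libraries and was in no comparison. In the Apln+Esm1 cells it had 44, 104 and 31 UMIs, in 40, 95 and 29 cells, in the libraries labelled Cre-positive of vehicle, day 3 and day 7. It had 0 UMIs in the day 7 library labelled Cre-negative. The labels name no reporter allele for these mice.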

How the results depend on the processing

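Counts of called genes varied with the settings. Thinning to 2000 UMIs gave 2745 calls for members against other cells, 2352 against capillary cells, 677 for Apln-only against Esm1-only, 50 at day 3, and 7 and 2 for the differences by genotype and at day 7. It moved the log2 share ratio from -0.10 to 0.0081 at day 3, so that its sign turned, and from 0.27 to 0.049 by genotype, with the day 7 pair at -0.66. Cells within the interquartile range of member UMIs gave 2179, 1747, 709, 28 (day 3) and 0 (day 7), and 14, 16 and 15 for the differences by genotype, day 3 and day 7. Without the replicate block by library, 2300 and 2039 genes were called. DESeq2 gave 47 at day 3, 0 at day 7, and 0, 3 and 0 for the differences. With no filter beyond 1 UMI the counts were 77, 447 and 32, and 34, 62 and 23. At least 3 UMIs of Apln and Esm1 gave 2 at day 7, and 12 and 8 for the differences at day 3 and day 7. Doublet removal gave 4 at day 7, and 1 and 4 for the differences by genotype and at day 7. Xist-free cells gave 7 by genotype, 47 at day 3, and 5 and 11 for the differences by genotype and day 3. Without day 7, day 3 gave 421 and 17, and without day 3 the day 7 difference gave 31. Left-out libraries or pairs gave 3683 to 4338, 2979 to 3663, 1235 to 1529, 4 to 75 by genotype and 3 to 37 for its difference, and share ratios by genotype of 0.09 to 0.51. Within the interquartile range Plaur turned to -0.12 against other cells and -0.063 against capillary cells, neither called. Of 1954 genes called against other cells both in that range and in all cells, 1952 kept their direction. The causes were not tested. Of the genes named by the rule, those of members against other cells kept their call in all 346 tests of alternatives, and those of Apln-only against Esm1-only in all 295. By genotype 21 tests lost the call and 87 were unchanged, and at day 3 it was 54 and 158. These counts take in genes named in any comparison. An unchanged test by genotype or at day 3 can thus be of a gene not called there. Kinds of cell were paired by library and genotypes by treatment, and the labels carry no replicate numbers for another pairing. Apln-only cells number 189, so genes near the level of 1 UMI there have wide intervals.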
